A study of Sus scrofa with 10 samples.

Results

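The acute-phase and carrier plasma proteins described here are 10 genes of the pig liver, *HP*, *CRP*, *LBP*, *ITIH3*, *ITIH4*, *SERPINA1*, *ALB*, *TTR*, *AHSG* and *GC*. They were chosen by name, as the probe sets whose array annotation gives one of these symbols and no other, which are 13 of 23999 porcine probe sets. The 10 livers came from females of an Iberian x Landrace backcross, 5 of group H and 5 of group L, and each was read on 1 array. H and L are the high and the low end of the first principal component of carcass and muscle fatty acid traits. H animals carried more polyunsaturated and L animals more saturated and monounsaturated fatty acids in the *Longissimus dorsi* muscle. All were untreated pigs kept and fed alike and slaughtered at a similar age. No pool was made, and some animals of H have a full or maternal sib in L. The sources used here do not say which, so kinship was not modelled.

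The liver makes most of the proteins of blood plasma. In inflammation, interleukin-6 acts through the transcription factor STAT3, and interleukin-1 through NF-kappa-B and C/EBP factors, to raise the transcription of positive acute-phase genes in hepatocytes, while that of negative acute-phase genes goes down. Haptoglobin (*HP*), C-reactive protein (*CRP*) and the protein of *ITIH4*, named pig major acute-phase protein, are the reactants most used as signs of inflammation in pigs. Albumin (*ALB*), transthyretin (*TTR*) and fetuin-A (*AHSG*) are carriers counted as negative reactants, and the vitamin D-binding protein (*GC*) is a further carrier grouped with them here.

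The deposited values had been normalized between the arrays, which brings their overall scales together. Medians ran from 3.78 to 3.85 and highest values from 15.86 to 16.00 on the log2 scale. The lowest value over all the arrays was 2.19. A gene's value is the average over those of its probe sets that reached a mean of 4, which left 4730 genes and 11756 probe sets to test. Of the 13 probe sets 11 passed, and each of the 10 genes kept at least 1. The livers carried hepatocyte transcripts on every array (9 of 9 listed markers on the array passed). Of 5 neutrophil markers and 2 adipocyte markers on the array, 0 and 0 passed, among them *S100A8*, *S100A9* and *ADIPOQ*. Of 6 Kupffer cell and macrophage markers 5 passed, and their summed level ran from 11.78 to 12.42 in H and from 11.92 to 12.49 in L (log2). *HBB*, the 1 of 3 red cell markers that passed, averaged 9.11 in H and 8.82 in L, and *JCHAIN*, the 1 of 4 lymphocyte markers, averaged 9.83 in H and 10.24 in L. The part of these cells in the results was not tested. In a piece of whole liver, fewer cells of a type and less RNA per cell cannot be told apart.

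Among the positive reactants, *HP* was read near the top of the scale in every liver. Its protein binds the haemoglobin that leaks from red cells. *HP* measured 15.43, 15.61, 15.45, 15.39 and 15.54 in H1 to H5, against 15.59, 15.53, 15.64, 15.61 and 15.55 in L1 to L5 (log2). H1, H3 and H4 lay below every L animal, while H2 and H5 lay within the range of L, so the groups overlapped. The log2 difference of H minus L was -0.098 (standard error 0.068, limma adjusted p = 0.985, n = 5 each), and an exact permutation test over the animals gave p = 0.0794 (two-sided). The whole range over the animals was 1.18-fold. After quantile normalization of the arrays the difference was -0.035.

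*CRP*, a pentraxin that binds phosphocholine on bacteria and damaged cells, varied most between animals. It measured 11.65, 12.43, 12.39, 9.08 and 12.71 in H1 to H5, against 12.68, 12.09, 13.08, 12.23 and 12.19 in L1 to L5 (log2). H4 stood apart, 2.58 log2 units (5.96-fold) below the next H animal, and the other 9 livers lay between 11.65 and 13.08. The gap of H4 was 0.7096 of the range of the H group, just under Dixon's limit of 0.71 for 5 animals. Over all the members 40 such ends were tested, and 0 passed the limit. The mean of *CRP* was 11.65 ± 1.49 over H and 12.45 ± 0.42 over L (SD, n = 5 each), and H minus L was -0.80 ± 0.61 (standard error; adjusted p = 0.985 in limma). Without H4 the difference was -0.16, so 1 animal made most of it. The reference gene table of assembly Sscrofa11.1 holds 2 neighbouring entries named *CRP*. Which of them the probes read was not tested.

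*LBP* encodes the protein that hands bacterial lipopolysaccharide to CD14. Its brighter probe set measured 10.65, 10.89, 11.29, 11.40 and 11.80 in H1 to H5, against 11.07, 11.72, 10.86, 11.27 and 11.08 in L1 to L5 (log2). H5 was the highest and H1 the lowest liver of all 10, and both groups spread over about the same range. The means, 11.21 ± 0.45 for H and 11.20 ± 0.32 for L (SD, n = 5 each), differed by 0.0068 (standard error 0.23, limma adjusted p = 0.999). The other probe set of *LBP* lay within 0.5 of the lowest array value on 10 of 10 arrays and gave no usable level.

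*ITIH3* and *ITIH4* encode heavy chains of the inter-alpha-trypsin inhibitor family and lie side by side in the Sscrofa11.1 gene table, with 0 protein-coding genes between them. No relation between their values was detected over the animals, with r = -0.00024 (Pearson, n = 10 animals, p = 0.999 by permutation) and rho = -0.18 (Spearman, p = 0.632 by permutation). *ITIH3*, whose protein is attached to hyaluronan, measured 11.08, 11.39, 12.16, 10.98 and 11.21 in H1 to H5, against 11.55, 11.17, 11.38, 10.81 and 10.54 in L1 to L5 (log2). H3 was the highest and L5 the lowest. The difference was 0.27 (standard error 0.25, limma adjusted p = 0.985), and without H3 it was 0.073. Its 2 probe sets past the filter did not give the same size: one, averaging 9.95 in H and 9.45 in L, differed by 0.50 (standard error 0.29), and the other, averaging 12.78 in H and 12.73 in L, by 0.050 (standard error 0.24), with limma adjusted p of 0.991 and 0.994 over all probe sets. The third, with a mean of 3.78, averaged 4.13 in H and 3.43 in L. It was also highest in H3, at 5.18, and lowest in L5, at 2.67. When a filter at a mean of 3 kept it, the gene differed by 0.41, against 0.050 with the brightest probe set alone. Over the 10 animals the 2 brighter probe sets had an r of 0.789 (permutation test, p = 0.00862) and a rho of 0.685 (permutation test, p = 0.0346), and r was 0.777 without H3 and L4.

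*ITIH4* measured 12.96, 13.46, 13.47, 13.65 and 13.42 in H1 to H5, against 13.47, 13.39, 14.01, 13.71 and 13.51 in L1 to L5 (log2). L3 was the highest and H1 the lowest liver, and 4 of the 5 H animals lay below the median of L. Its mean was 13.39 ± 0.26 over H and 13.62 ± 0.25 over L (SD, n = 5 each). The difference of -0.22 had the smallest unadjusted limma p of the 10 genes, 0.170, with an adjusted p of 0.985. It was -0.11 without H1. By the exact permutation test (two-sided) p was 0.222 for *ITIH4*, against 0.0794 for *HP*, so this order depends on the test. It also depends on the settings of limma. With a robust prior that follows brightness, the unadjusted limma p was 0.0839 for *HP* and 0.153 for *ITIH4*. Without the filter the limma p was 0.0503 and 0.186, and 0 of the 10 genes were called in either setting. *SERPINA1*, alpha-1-antitrypsin, the main inhibitor of neutrophil elastase, ranged from 14.23 in H5 to 14.83 in H2. Its mean was 14.50 ± 0.24 over H and 14.51 ± 0.13 over L (SD, n = 5 each), and the 5 L values lay within the span of the H values. H minus L was -0.0077 (standard error 0.12).

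**Figure D1:**
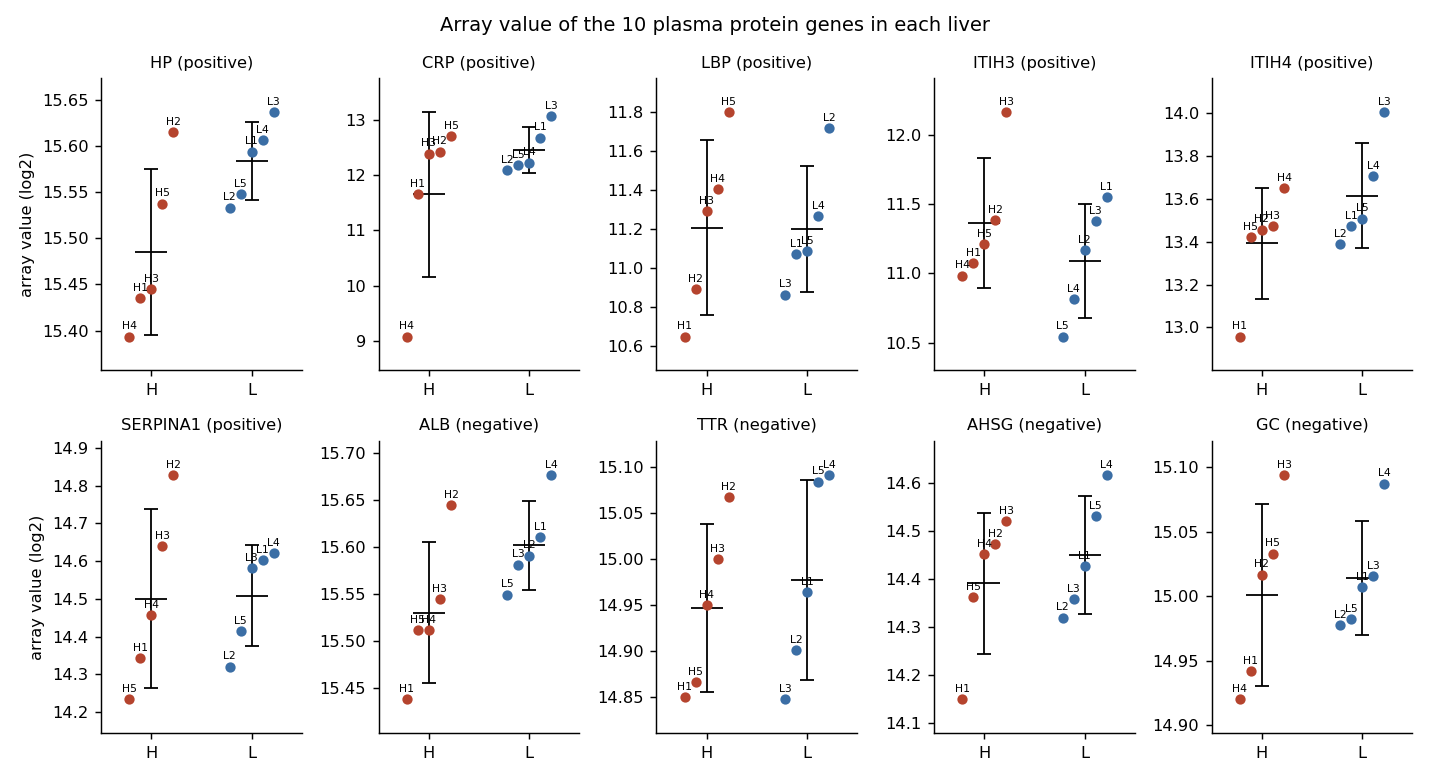
Array value (log2, y axis, a scale of its own in each panel) of the 10 genes in each liver, with H left of L; points are animals, sorted by value within a group, and the bars give the mean and SD (n = 5 each). H4 lies far below the other livers for CRP, and H and L overlap in each panel.

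The carriers were read in the upper part of the scale. *ALB*, the most abundant plasma protein and the carrier of free fatty acids, measured 15.44, 15.64, 15.54, 15.51 and 15.51 in H1 to H5, against 15.61, 15.59, 15.58, 15.68 and 15.55 in L1 to L5 (log2). In H, 4 of the 5 animals lay below each L animal, and H2 lay above 4 of the 5 L animals. The difference was -0.072 (standard error 0.066, limma adjusted p = 0.985; exact permutation test, two-sided, p = 0.103, n = 5 each). After quantile normalization the difference was -0.0014. The highest liver was 1.18-fold above the lowest. *ALB* lay between 0.28 and 0.44 below the highest value of its array, and *HP* between 0.35 and 0.54 (log2), so these small folds were read close to the ceiling of the scale, and whether values are compressed there was not tested.

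*TTR*, which carries thyroxine and, with retinol-binding protein, vitamin A, ranged from 14.85 to 15.07 in H and from 14.85 to 15.09 in L. *AHSG*, whose protein keeps calcium phosphate from precipitating, ranged from 14.15 to 14.52 in H and from 14.32 to 14.62 in L. *GC*, which carries vitamin D and binds free actin, ranged from 14.92 to 15.09 in H and from 14.98 to 15.09 in L. In each of these genes the groups overlapped over most of their range. H minus L was -0.031 for *TTR* (standard error 0.079), -0.059 for *AHSG* (standard error 0.094) and -0.013 for *GC* (standard error 0.065), with limma adjusted p of 0.985, 0.985 and 0.997. H1 was the lowest liver for *AHSG* and *ALB*, and L4 the highest for *AHSG*, *ALB* and *TTR*.

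In the comparison of H with L, 0 of the 10 genes had a limma adjusted p under 0.05, against a background of 0 of 4730 genes (0%) and of 0 of 11756 probe sets (0%). Without adjustment, 0 of the 10 had p under 0.05, against 125 of all genes (2.64%) and 363 of all probe sets (3.09%). Unadjusted p ran from 0.170 to 0.977. Of the 6 positive genes 4 were below 0 and 2 above, with a median log2 difference of -0.053, and of the 4 negative genes and carriers 4 were below 0, with a median of -0.045. The same over all genes tested was a median of -0.043, with 62.8% below 0. The groups overlapped in each of the 10 genes, and how often they do so over all genes tested was not counted. The 95% interval of the difference held 0 in each and was narrowest for *GC*, from -0.16 to 0.13, and widest for *CRP*, from -2.16 to 0.56. With 5 animals in each group the smallest p of the exact permutation test is 0.00794.

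**Figure D2:**
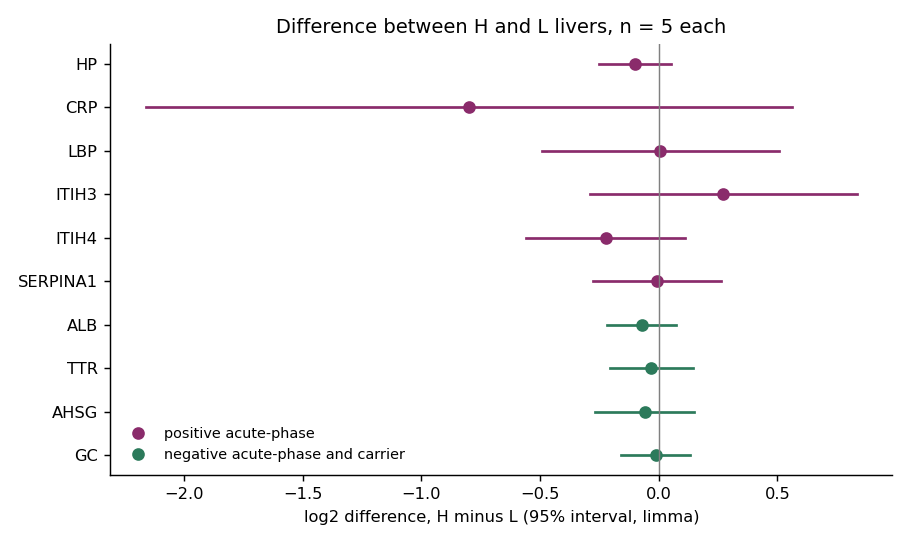
Log2 difference H minus L (points) with the 95% interval of limma (lines) for the 10 genes, n = 5 H and 5 L. Each interval holds 0, and that of CRP, from -2.16 to 0.56, is the widest.

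The genes differed in how far the animals spread, which is given as a description without a test. The SD over the 10 animals was 1.11 for *CRP*, 0.44 for *ITIH3*, 0.37 for *LBP* and 0.27 for *ITIH4* (log2 units). These lay at percentiles 99.2, 88.1, 81.7 and 63.2 of the SD over all genes tested, whose median was 0.22. The SD of *SERPINA1* was 0.18. The SD was lowest in *GC*, 0.056, *ALB*, 0.070, *HP*, 0.084, *TTR*, 0.096, and *AHSG*, 0.13. Brightness goes with these values: the 57 genes tested with a mean of 14 or more had a median SD of 0.13, and the 865 with a mean from 10 to under 14 had one of 0.20. Among the 57, *SERPINA1* was at percentile 78.9, *AHSG* at 56.1, *TTR* at 31.6, *HP* at 24.6, *ALB* at 17.5 and *GC* at 8.77. The highest over the lowest animal was 16.0-fold for *CRP*, 3.08-fold for *ITIH3*, 2.22-fold for *LBP* and 2.07-fold for *ITIH4*, but 1.13-fold for *GC*. The SD of *CRP* rested on H4 and over the other 9 animals was 0.41, below that of *ITIH3*, 0.46 over the same 9. After quantile normalization the SD of *ALB* was 0.032.

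**Figure D3:**
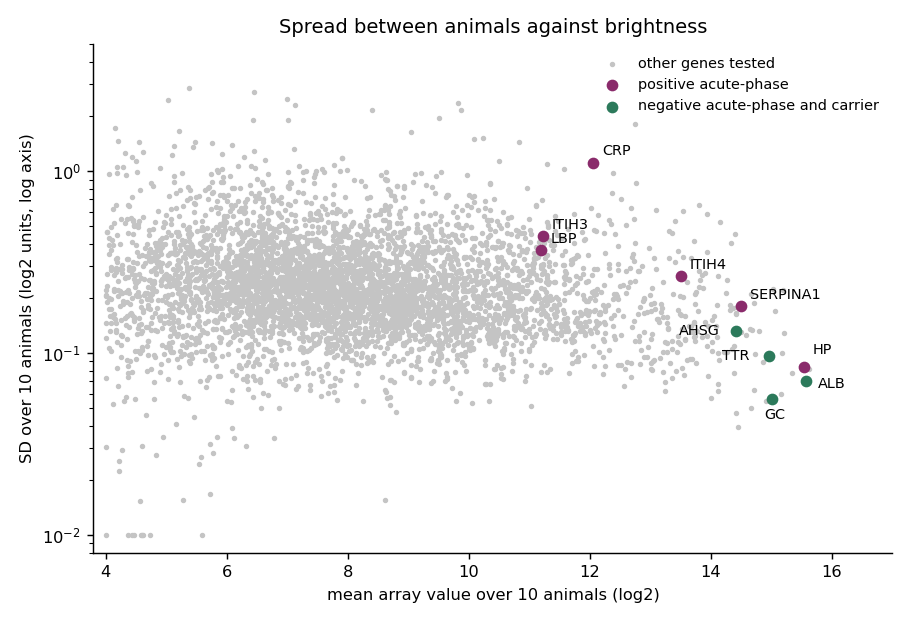
SD over the 10 animals (y axis, log2 units on a log axis) against the mean array value (x axis, log2) of each gene tested; the 10 plasma protein genes are coloured by kind, and the 9 genes with an SD under 0.01 are drawn at 0.01. CRP, at an SD of 1.11, lies near the upper edge of the cloud, and HP, ALB, TTR and GC lie at its bright end with an SD under 0.10.

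Single animals were high or low in many of the genes at once. H1 was above the median animal in 0 of the 6 positive genes and 0 of the 4 negative genes and carriers. It was the lowest liver for *LBP*, *ITIH4*, *ALB* and *AHSG*. H1 was also above the median animal in only 34.9% of the 4730 genes, the lowest share of the 10 animals, so the shift was not limited to plasma proteins. H4 was the lowest for *HP*, *CRP* and *GC*, yet above the median for *LBP*, *ITIH4* and *AHSG*, and above the median in 45.2% of all genes. L3 was the highest for *HP*, *CRP* and *ITIH4* and the lowest for *TTR*. L4 was above the median in 4 of the 6 positive and 4 of the 4 negative genes and carriers, and in 59.7% of all genes. No animal was high in most positive and low in each negative gene: L3 was above the median in 5 positive and 2 negative genes, and H3 in 5 and 3.

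**Figure D4:**
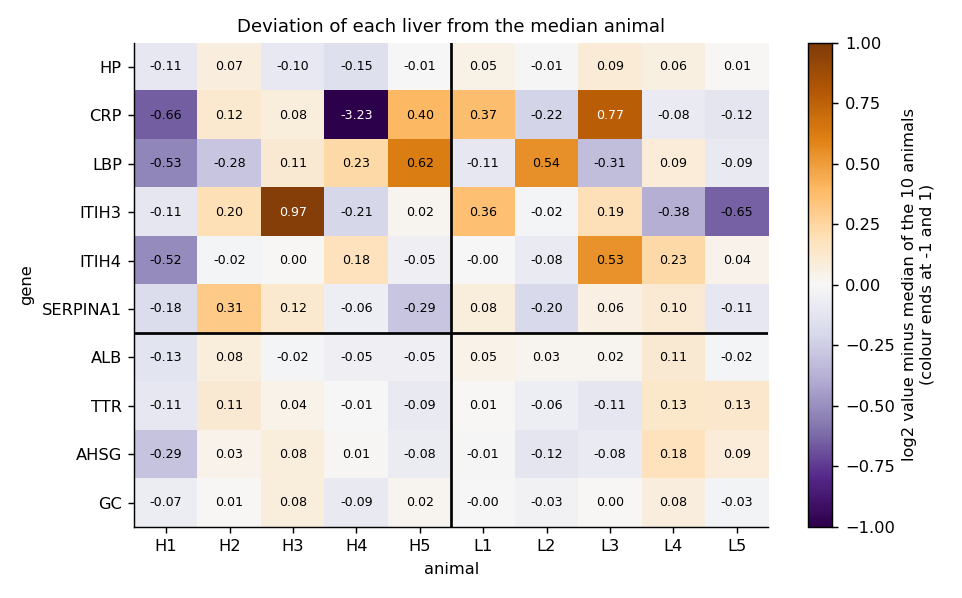
Log2 value of each gene in each liver minus the median of the 10 animals; rows are genes, positive above negative, and columns are animals, H left of L, with the colour ending at -1 and 1. The column of H1 is below the median in each row, and the lowest cell is CRP in H4.

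Over the 10 animals, r was higher among the carriers than among the positive reactants, as a description, since the difference was not tested. The 6 pairs among *ALB*, *TTR*, *AHSG* and *GC* had r from 0.38 to 0.86, with a median of 0.59, and 6 of 6 were above 0. Most of these rested on H1 and L4: without both, r was -0.068 for *ALB* and *AHSG*, 0.125 for *ALB* and *GC*, 0.172 for *AHSG* and *GC* and 0.282 for *ALB* and *TTR*. The 15 pairs of 2 positive genes had a median r of 0.094 and a range from -0.48 to 0.73, with 9 above 0. That median was -0.0064 without H1 and 0.29 without H4. The 24 pairs of 1 positive and 1 negative gene had a median of 0.29, with 20 above 0, and a median of 0.033 without H1. For comparison, the median r was 0.087 over all pairs of the 57 genes with a mean of 14 or more (57.6% above 0) and 0.031 over all pairs of genes tested (53.0% above 0). Pairs share genes and arrays and are not independent. After quantile normalization of the arrays the medians were 0.26 for the carriers and -0.042 for the pairs of 1 positive and 1 negative gene, so the sign for the mixed pairs changed with the scaling.

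Of the 45 pairs, 1 had an adjusted p under 0.05 (permutation test with 100000 resamples, two-sided, Benjamini-Hochberg adjustment over the 45 pairs). *TTR* and *AHSG* reached r = 0.856 (Pearson, p = 6e-04 by permutation, adjusted p = 0.0270) and rho = 0.915 (Spearman, p = 5.6e-04 by permutation, adjusted p = 0.0252). Without L4 and L5, the animals farthest from the median of *TTR*, r was 0.766. Centring H and L on their own means gave 0.852, with an adjusted p of 0.172 from exact permutation within the groups. The call was also lost after quantile normalization (r = 0.653) and median centring (r = 0.812) of the arrays. A group of 5 animals is too small for a correlation of its own. At an unadjusted p under 0.05 there were 6 of the 45 pairs, and the share over pairs of other genes was not counted. *HP* and *ALB*, both near the top of the scale, had an r of 0.760 (permutation test, adjusted p = 0.153), and *HP* and *CRP* an r of 0.732 (permutation test, adjusted p = 0.0727). For *HP* and *CRP*, r was 0.402 without H1 and H4.

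**Figure D5:**
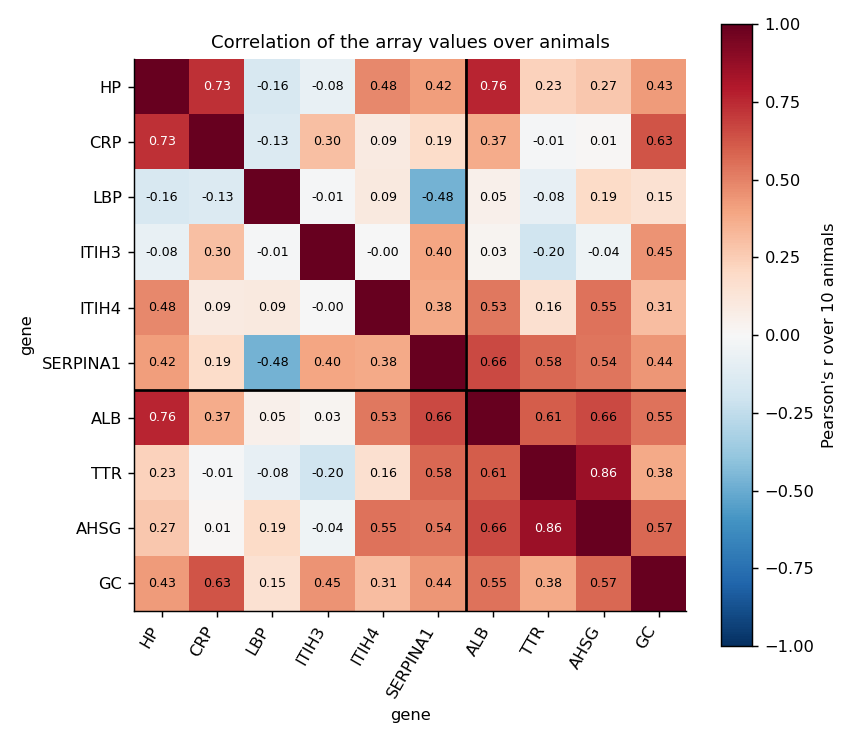
Pearson's r over the 10 animals for each pair of the 10 genes, with lines between the 6 positive genes and the 4 negative genes and carriers. The block of ALB, TTR, AHSG and GC lies between 0.38 and 0.86, and the row of LBP runs from -0.48 to 0.19.

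The mean of the 107 other probe sets with a mean of 14 or more, a measure of the bright end of each array, ran from 14.52 in H4 to 14.62 in L2. It had an r of 0.657 with *CRP*, 0.558 with *GC*, 0.554 with *HP* and 0.542 with *ALB* (n = 10 animals). With *ITIH3*, *ITIH4* and *SERPINA1* it had an r between -0.060 and 0.0051. None of the 10 relations had an adjusted permutation p under 0.05 (smallest 0.257 for r and 0.614 for rho), and 0 had an unadjusted p under 0.05. With H4 and L2 left out, r was lower for *CRP*, 0.163, and *HP*, 0.374. It was higher for each carrier, at 0.804 for *AHSG*, 0.645 for *TTR*, 0.633 for *GC* and 0.583 for *ALB*. Of the positive genes, r was also higher for *LBP*, at 0.703, *ITIH4*, at 0.374, and *SERPINA1*, at 0.096. For *ITIH3* it was lower, at -0.313. With this level subtracted, *TTR* and *AHSG* had an r of 0.844 and were no longer called (permutation test, adjusted p = 0.110). The median r was then 0.55 over the carriers, 0.17 over the mixed pairs and 0.19 over all 45 pairs, against 0.31 over all 45 before.

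Other genes of the acute-phase response were tested in the same fit. Of 30 further positive reactants listed, 19 were tested and 0 had a limma adjusted p under 0.05 (1 higher and 0 lower in H at an unadjusted p under 0.05), with 5 above 0, 14 below 0 and a median difference of -0.064. The 1 gene was *APCS*, serum amyloid P, a pentraxin like *CRP*. It measured 13.95, 14.20, 14.23, 14.43 and 14.27 in H1 to H5, against 13.93, 14.07, 14.06, 13.80 and 14.07 in L1 to L5 (log2). H1 lay within the range of L and the other H livers above it, and H minus L was 0.23 ± 0.099 (standard error; adjusted p = 0.985 in limma). Next by p came *C9*, the pore-forming complement component, at 0.34 (standard error 0.17), *SERPING1*, the C1 inhibitor, at -0.14 (standard error 0.082), and *PLG*, plasminogen, at -0.092 (standard error 0.066). The difference was 0.20 for *C9* without L3 and -0.090 for *SERPING1* without L4. H4, the lowest liver for *CRP*, was also the lowest for 3 of the 19, *SERPING1*, *ORM1* and *CD14*, but the highest for *APCS* and *C9*. H1 was the lowest for 6 of the 19, and L4 the highest for 7. How often each animal is the lowest or highest over all genes tested was not counted. Of 23 further carriers and negative reactants, 17 were tested and 0 passed (0 at an unadjusted p under 0.05), with a median of -0.068 and 14 below 0. Those with the smallest p were the apolipoproteins *APOC3*, at -0.11 (standard error 0.065), *APOA4*, at -0.83 (standard error 0.55), and *APOA1*, at -0.11 (standard error 0.074), and the retinol carrier *RBP4*, at -0.14 (standard error 0.099). Without H1 *APOA4* was at -0.47 and *RBP4* at -0.068, and without L4 *APOA1* was at -0.067. Of the 17, L4 was the highest liver for 8, H1 the lowest for 4 and H4 the lowest for 2.

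Of the genes that carry the signal, 12 of 27 in cytokine signalling and 8 of 14 hepatocyte transcription factors were tested, with 0 and 0 called by limma and 0 and 0 at an unadjusted p under 0.05. *IL6*, *IL1B*, *TNF*, *IL6R*, *SOCS1*, *SOCS3* and *NFKB1* were on the array with a mean under 4 and gave no level to compare. *TYK2*, a kinase of cytokine receptors, differed by -0.15 (standard error 0.079), *TNFRSF1A*, a receptor of tumour necrosis factor, by -0.35 (standard error 0.21), *IRAK1*, a kinase of interleukin-1 signalling, by -0.31 (standard error 0.19), and *NR3C1*, the glucocorticoid receptor, by -0.15 (standard error 0.13). *STAT3* was at 0.041 (standard error 0.13). Among the factors *CEBPA* was at -0.21, *CEBPB* at 0.22, *HNF4A* at 0.21 and *NR5A2* at 0.13, with standard errors from 0.14 to 0.25. Single animals moved most of these: *IRAK1* was at -0.18 without L3, *NR3C1* at -0.076 without L2, *CEBPA* at -0.092 without L1, *CEBPB* at 0.068 without H2 and *NR5A2* at 0.040 without L3. *HNF4A*, at -0.0077 without L5, and *STAT3*, at -0.067 without H2, changed sign.

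*CRP* and *ITIH3*, the members with the largest SD, were set against all genes tested over the 10 animals, with each group centred on its mean. Closest to *CRP* were *TGFB1*, *CXCL14* and *CYP2E1*, with r from 0.92 to 0.94, and at the other end *TM2D3*, *CAV2* and *FXR2*, with r from -0.94 to -0.91. Without H4, r was 0.73 for *CXCL14* and -0.75 for *TM2D3*, but 0.42 for *TGFB1*, 0.23 for *CYP2E1*, -0.51 for *CAV2* and 0.33 for *FXR2*. For *ITIH3* the closest were *ZNF692*, *WIPI1* and *ENC1*, with r from 0.87 to 0.88, and the most opposed *ABCA1*, *C7H6orf106* and *PRELP*, with r from -0.85 to -0.83. Without H3, its farthest animal, these 6 stayed between 0.73 and 0.80 and between -0.90 and -0.71. They are the extremes over all genes tested and are given without a test.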

How the data were processed

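Liver RNA of 10 animals, 5 H and 5 L, was hybridised to Affymetrix GeneChip Porcine arrays, 1 per animal. Scanning with GCOS and the GCRMA method, which adjusts the background by probe composition and normalizes the arrays to each other, gave the authors' deposited log2 values; versions are not given in the sources used here. Of 24123 probe sets, 124 controls were left out. The values were used as deposited, and groups were taken from the titles in the labels. Probe sets with 1 symbol were averaged per gene if their mean was at least 4.

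H and L were fitted with limma 3.58.1 in R 4.3.3 over all genes and all probe sets (two-sided, Benjamini-Hochberg, threshold 0.05), and the code was tested on simulated data. Correlations used Python 3.11.15, numpy 2.4.6, pandas 2.3.3 and scipy 1.17.1; figures used matplotlib 3.10.9. Members and lists were chosen with earlier results of these data known. Named genes are the members, the 4 of each list with the smallest p (*STAT3*, *ORM1*, *CD14*, *HAMP* and *MBL2* were added after their values were seen), and the 3 nearest and 3 most opposed genes of the 2 members with the largest SD. Array data give no depth, and the number of arrays limits the precision.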

Additional observations from a re-analysis of the deposited data

How the results depend on the processing

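Dropping the filter or setting it at a mean of 3 or 6, quantile normalization, median centring, another prior, weighted arrays, a covariate for the *GAPDH* control signal (its 3' less its 5' end), other ways to combine probe sets, updated symbols and leaving out each animal all gave 0 called genes, over all genes and among the 10. With the animal number as a replicate block the count was also 0, and 140 genes had an unadjusted p under 0.05, against 125 without it. With each group centred, same-numbered animals correlated between -0.24 and 0.28, and differently numbered animals were not set beside them. Whether a number marks sibs or another pairing was therefore not tested. That unadjusted count was 281 without L2 and 213 without H2. The sign changed for *TTR* (0.033) and *GC* (0.023) after quantile normalization, which also brought *ALB* to -0.0014 and *HP* to -0.035, for *SERPINA1* (0.0097) and *GC* (0.0046) after median centring, and for *LBP* (-0.061) and *SERPINA1* (0.020) with the covariate. Leaving out animals moved the difference of *LBP* between -0.14 and 0.15, of *SERPINA1* between -0.090 and 0.059, of *AHSG* between -0.092 and 0.0014, and of *GC* between -0.036 and 0.0074. Each of these lay within its standard error of 0. The smallest adjusted p among the 10 genes ran from 0.794 to 1.

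The 1 called pair, *TTR* and *AHSG*, was lost (0 pairs called) with the groups centred, after quantile normalization (r 0.653) and after median centring (r 0.812). It was also lost with the level of the other bright probe sets subtracted. Among the genes with a mean under 14, 0 of 6 pairs were called. This setting leaves out both *TTR* and *AHSG*, so it says nothing about their pair. These 2 alternatives were chosen after seeing the data, as was leaving out animals for genes of the other lists. Leaving out single animals gave between 0 and 2 called pairs, 2 without H3 and 0 without H1, H4, L1, L4 or L5, while r of *TTR* and *AHSG* stayed between 0.810 and 0.889. The part of smaller n in these losses was not tested.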

Other observations

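*HAMP* and *MBL2*, chosen after their values were seen, had the largest SD of the 19 further positive reactants. *HAMP*, hepcidin, which limits iron export from cells, measured 9.70, 10.98, 6.01, 8.38 and 3.49 in H1 to H5, against 10.08, 8.48, 9.61, 8.24 and 9.01 in L1 to L5 (log2). H5 and H3 were the lowest livers and H2 the highest, and the difference of H minus L was -1.37 (standard error 1.22, limma adjusted p = 0.985). Without H5 it was -0.32, so 1 animal made most of it. The 3.49 of H5 lay under 4, the mean that the filter asks of a probe set. Whether that value stands above background was not tested. *MBL2*, the mannose-binding lectin of the complement system, ran from 8.58 in H1 to 11.90 in H3, and from 9.02 to 11.54 in L.

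*CRP* and *APCS*, both pentraxins, ran in opposite directions in H4 (9.08 and 14.43). Over the 10 animals their r was -0.500 (permutation test, p = 0.151) and rho -0.103 (permutation test, p = 0.786), and r was 0.295 without H4 (n = 9, exact permutation test, p = 0.443) and 0.400 without H4 and L3. The opposition rests on H4 alone.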
